A study of Mus musculus with 8 samples.

Results

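Chemokines are small secreted proteins that guide leukocytes by binding G protein-coupled receptors on their surface. CC chemokines mostly draw monocytes, lymphocytes and dendritic cells, while the CXC chemokines Cxcl1 and Cxcl2 draw neutrophils in the mouse. Resident macrophages of the lung air spaces make some of them at rest and switch on others within a short time of an inflammatory signal, mainly through NF-kB and AP-1 transcription factors. The set described here holds 10 chemokine genes chosen by name, of which 9 have a row among the 12367 rows of the deposited expression table. Pf4, the platelet factor that macrophages can also make, was not analysed here. From general knowledge of their regulation, Ccl6, Ccl9, Cxcl16 and Pf4 were treated as constitutive, Ccl2, Ccl3, Ccl4, Cxcl1 and Cxcl2 as induced, and Ccl17 as neither.

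The study compared alveolar macrophages with a deletion of Tfam, the mitochondrial DNA packaging and transcription factor, with macrophages that keep it. The KO group is CD11c-Cre Tfam-fl/fl and the WT group is Tfam-fl/fl without Cre, both from untreated mice aged 3 weeks. Each group has 4 libraries of polyA RNA, and each library is a pool of flow-sorted CD45+ F4/80+ CD11c+ lung cells of male and/or female mice, with 3 to 5 mice in a pool. The CD11c promoter is active in alveolar macrophages and also in dendritic cells, CD11c is also part of the gate, and no group carried the Cre on an unfloxed background, so that effects of the Cre and of Tfam loss cannot be told apart. Tfam was 3.52 to 5.08 in KO libraries and 26.1 to 35.2 in WT libraries, a log2 difference of -2.55 (SE 0.117, limma adjusted p = 1.02e-06). Listed genes held 20243772 to 30263201 reads per KO library and 24776683 to 29161957 per WT library. Alveolar macrophage markers were present in every library, with 13 of 13 in the table. Their summed value was 30412 to 36096 in KO and 30626 to 32557 in WT, most of it from Chil3. Of the 13, 7 were lower in KO and 2 were higher, beside 20% of all tested genes lower and 18.7% higher. Among the markers that fell, Fabp1 averaged 11.2 ± 2.50 in KO and 180 ± 16.1 in WT (SD, n = 4). Ear1 averaged 123 ± 39.3 in KO and 845 ± 112 in WT, and Epcam 2.05 ± 0.816 in KO and 19.5 ± 1.77 in WT. The 2 that rose were Itgax, which encodes CD11c, and Car4. Itgax averaged 2050 ± 202 in KO and 1094 ± 48.5 in WT, and Car4 1336 ± 190 in KO and 723 ± 122 in WT. Marco and Pparg were in neither group.

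Values below are the authors' normalised values, scaled by a factor for each library. Fold changes are KO minus WT of log2(value + 1), so that the change of a gene with a low value comes out too small. A gene was called when its Benjamini-Hochberg adjusted p from limma over all 12163 tested genes was under 0.05. In bulk libraries a change in RNA per cell and a change in which cells were sorted cannot be told apart.

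The promoters of an induced CXC pair and of the constitutive CC pair Ccl6 and Ccl9 are shown first, as examples of the classes into which the set was divided. No test related promoter letters to the values. RefSeq promoters (GRCm38.p6) were found for 7 of the 10 genes and searched from 250 bases before to 50 bases after the start, on both strands. The motifs were the NF-kB motif, the AP-1 motif TGANTCA, the CARE motif TGATGNAA bound by ATF4 with C/EBP factors, and the PU.1 motif GAGGAAG. Each line below gives the 150 bases before the RefSeq start, 5′ to 3′ on the gene's strand, with motif matches in capitals.
Cxcl1, chr5:90891095-90891244, plus strand: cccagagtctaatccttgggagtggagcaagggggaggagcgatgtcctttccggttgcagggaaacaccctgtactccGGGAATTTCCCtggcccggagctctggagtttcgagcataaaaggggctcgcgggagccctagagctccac
Cxcl2, chr5:90903749-90903898, plus strand: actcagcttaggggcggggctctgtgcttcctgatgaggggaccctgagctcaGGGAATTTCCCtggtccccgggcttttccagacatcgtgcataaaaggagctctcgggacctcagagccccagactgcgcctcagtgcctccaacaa
Ccl6, chr11:83593088-83593237, minus strand: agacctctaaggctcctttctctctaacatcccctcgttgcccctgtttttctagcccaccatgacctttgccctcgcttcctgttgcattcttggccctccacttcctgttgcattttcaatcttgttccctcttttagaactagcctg
Ccl9, chr11:83578637-83578786, minus strand: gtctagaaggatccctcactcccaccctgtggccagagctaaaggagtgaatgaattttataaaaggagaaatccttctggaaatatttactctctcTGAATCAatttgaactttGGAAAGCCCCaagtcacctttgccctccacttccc

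Cxcl1 and Cxcl2 each held the NF-kB motif, in overlapping matches on both strands, and their upstream stretches shared a longest identical run of 14 bases that covers it. The NF-kB motif occurred in 8.46% of 32851 RefSeq promoters of the same length. Ccl9 held 1 match to the NF-kB motif and the AP-1 motif TGANTCA, which reads alike on both strands and occurred in 7.81% of promoters. Ccl6, Ccl3 and Ccl17 held none of the 4 motifs in this window, and CARE, found in 3.97% of promoters, was in none of the 7. PU.1, found in 13.6% of promoters, matched in Cxcl2, just after the start, and in Pf4. These are matches of letters, and binding was not measured.

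Of the 9 chemokines with values, 6 rose in KO, 0 fell and 3 were not called. Of the 12163 genes tested, 38.7% were called, with 18.7% of all genes higher and 20% lower. With the replicate number as a block, 7 of the 9 were called higher and 1 lower, against 46.7% of all genes called, 22.4% higher and 24.3% lower. The genes that rose were all 3 measured constitutive chemokines, Ccl17, and 2 of 5 induced chemokines, Ccl3 and Ccl4. In all 6, every KO library lay above every WT library, which holds for 18.1% of tested genes. The calls rest on the same values, so this is not a separate result. The median log2 fold change was 1.19 over the 9 chemokines, 1.51 over the constitutive and 0.73 over the induced ones, beside -0.0063 over all tested genes. The 6 were called under every alternative analysis in which they were tested except that Ccl4 missed an adjusted p of 0.01.

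**Figure D1:**
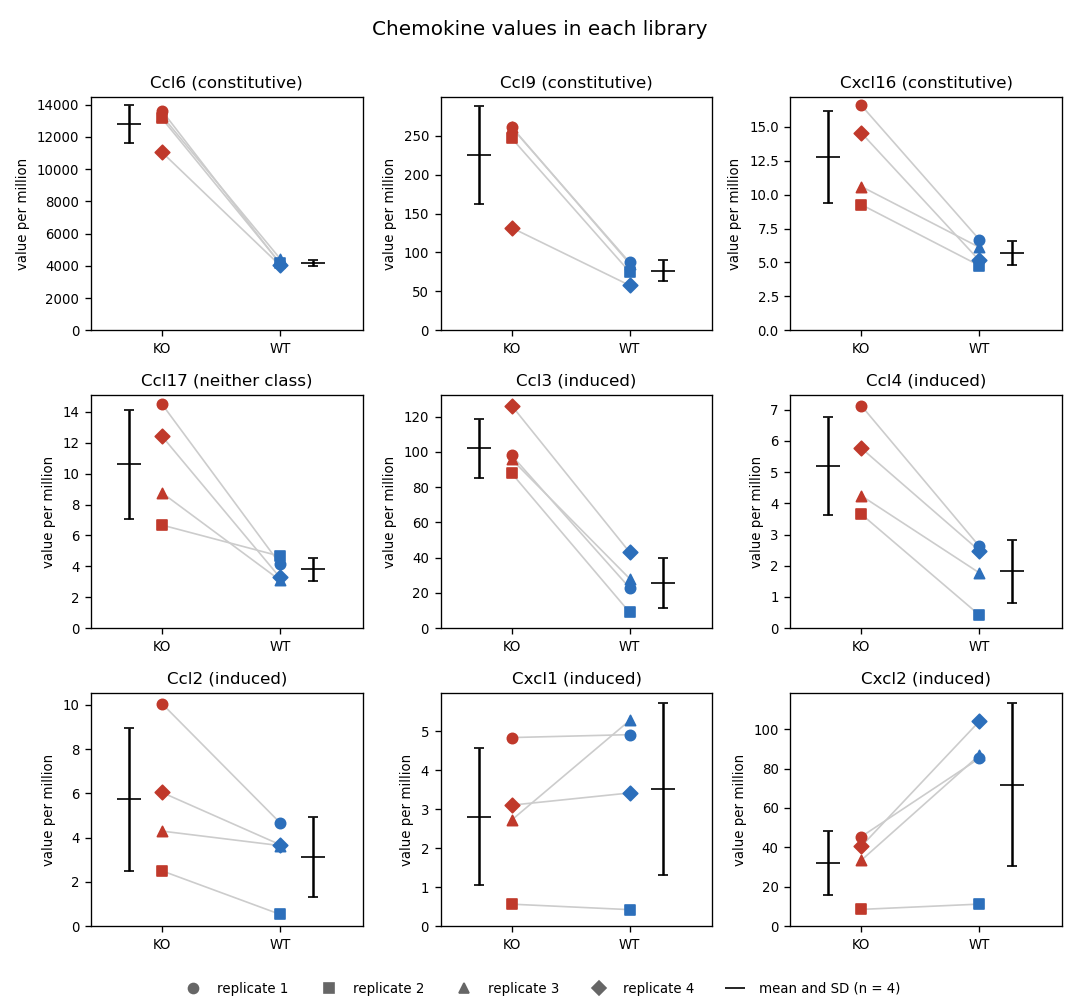
Normalised value (vertical axes, linear, from 0) of each chemokine in 4 KO and 4 WT libraries. Marker shapes give the replicate number, grey lines join libraries of the same number, and black bars give the mean and SD (n = 4). KO lies above WT without overlap in Ccl6, Ccl9, Cxcl16, Ccl17, Ccl3 and Ccl4, while Ccl2, Cxcl1 and Cxcl2 overlap. Replicate 2 is the lowest library in both genotypes for Ccl2, Cxcl1 and Cxcl2, and also for Ccl3, Ccl4 and Cxcl16.

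Ccl6, a CC chemokine that acts through Ccr1 in the mouse and that alveolar macrophages make at rest, was 13630, 13149, 13318 and 11055 in KO libraries 1 to 4 and 4136, 4182, 4457 and 4032 in WT libraries 1 to 4. It was the most even of the 9, with a coefficient of variation of 9.17% in KO and 4.32% in WT. Its log2 fold change was 1.60 (SE 0.0809, limma adjusted p = 1.30e-06). Ccl6 alone took 1.24% ± 0.110 of the reads in listed genes in KO and 0.434% ± 0.0208 in WT (SD, n = 4, two-sided exact permutation p = 0.0286, the smallest that 4 against 4 allow). The other 8 chemokines together took 0.0383% ± 0.00491 in KO and 0.0198% ± 0.00587 in WT. The gene overlaps E230016K23Rik on the opposite strand, which was 25.0 ± 3.49 in KO and 9.92 ± 1.59 in WT (log2 fold change 1.26, limma adjusted p = 6.59e-05). The kit keeps strand, but the strand setting of the counting is not given in the sources used here, so reads of the overlap cannot be told apart. The value of Ccl6 was far above that of the overlapping gene.

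Ccl9, a close relative of Ccl6 that also signals through Ccr1, was 261, 247, 261 and 132 in KO libraries 1 to 4 and 87.1, 75.0, 85.6 and 57.7 in WT libraries 1 to 4. Library 4 was the lowest in both genotypes, and in KO it stood well below the other 3. The log2 fold change was 1.51 (SE 0.221, limma adjusted p = 0.00053), and 1.75 without KO replicate 4. Cxcl16, a membrane-anchored chemokine that attracts Cxcr6-bearing lymphocytes and also binds oxidised lipid, was 16.6, 9.26, 10.6 and 14.5 in KO libraries 1 to 4. In WT libraries 1 to 4 it was 6.69, 4.77, 6.11 and 5.15, all below the lowest KO library. The log2 fold change of Cxcl16 was 1.02 (SE 0.176, limma adjusted p = 0.00146). Cxcl16 overlaps Zmynd15 on the opposite strand.

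Ccl17, which attracts Ccr4-bearing T cells and is induced by type 2 cytokines, was 14.5, 6.68, 8.77 and 12.4 in KO libraries 1 to 4 and 4.16, 4.66, 3.10 and 3.28 in WT libraries 1 to 4. The groups did not overlap, and KO library 2 came closest to WT. The log2 fold change was 1.23 (SE 0.215, limma adjusted p = 0.00152). Its neighbour on chromosome 8, Ccl22, the other ligand of Ccr4, was 17.0 to 21.7 in the KO libraries and 9.59 to 14.2 in the WT libraries, with no overlap. It rose by 0.63 on the log2 scale (limma adjusted p = 0.00264). Cx3cl1 lies on that chromosome within 100 kb of Ccl17 and averaged 43.8 ± 1.36 in KO and 49.1 ± 4.83 in WT (SD, n = 4), which was not called (limma adjusted p = 0.13).

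Of the 5 induced chemokines, Ccl3 and Ccl4 rose and Ccl2, Cxcl1 and Cxcl2 were not called. Ccl3, a ligand of Ccr1 that draws monocytes and lymphocytes, was 98.1, 87.9, 95.8 and 126 in KO libraries 1 to 4 and 22.9, 8.94, 28.1 and 43.1 in WT libraries 1 to 4. It had the highest fold change of the set, at 2.12 on the log2 scale (SE 0.372, limma adjusted p = 0.00158). Its coefficient of variation was 16.4% in KO and 54.8% in WT. Ccl4, a related chemokine encoded beside it, was 7.13, 3.65, 4.24 and 5.77 in KO libraries 1 to 4 and 2.62, 0.42, 1.77 and 2.48 in WT libraries 1 to 4. The groups did not overlap, and the log2 fold change was 1.19 (SE 0.301, limma adjusted p = 0.0114). The lowest Ccl4 value, in WT library 2, rests on 11 reads, and the other 7 libraries on 46 to 155.

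Ccl2, the main Ccr2 ligand and a monocyte attractant, was 10.1, 2.50, 4.29 and 6.04 in KO libraries 1 to 4 and 4.67, 0.53, 3.64 and 3.68 in WT libraries 1 to 4. The groups overlapped, and the log2 fold change of 0.73 (95% interval -0.27 to 1.74) was not called (limma adjusted p = 0.229). KO was nonetheless above WT in 4 of 4 same-numbered pairs, and with the replicate number as a block the limma adjusted p was 0.00697. Without 1 library the log2 fold change ranged from 0.31, without WT replicate 2, to 1.01, without KO replicate 2. Ccl2 overlaps Gm17268 on the opposite strand.

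Cxcl2, a Cxcr2 ligand that draws neutrophils, was 45.4, 8.44, 33.4 and 40.5 in KO libraries 1 to 4 and 85.2, 11.1, 86.8 and 104 in WT libraries 1 to 4. KO was lower in 4 of 4 same-numbered pairs, but both number 2 libraries lay far below the rest, so that the groups overlapped. The log2 fold change was -0.99 (95% interval -2.60 to 0.63), not called in the unblocked fit (limma adjusted p = 0.315). With the replicate number as a block it was called lower (SE 0.15, limma adjusted p = 0.000833). It was also called lower without WT replicate 2 (log2 fold change -1.72, adjusted p = 0.0264, with 16.1% of genes called lower) and without both number 2 libraries (-1.20, adjusted p = 0.000737, with 13.2% of genes called lower). Leaving out any other single library gave no call, and the log2 fold change without 1 library ranged from -1.72 to -0.46, the smallest without KO replicate 2. In the GENCODE M21 transcripts, 5.84% of the 50-base words of Cxcl2 also occur in Cxcl3, so that reads from there could be split between these genes. The share was 1.97% for Ccl9 and 0 for the other 7 chemokines.

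Cxcl1, the other Cxcr2 ligand of the set, was 4.84, 0.561, 2.72 and 3.10 in KO libraries 1 to 4 and 4.91, 0.42, 5.28 and 3.42 in WT libraries 1 to 4. It was not called (log2 fold change -0.19, 95% interval -1.34 to 0.97, limma adjusted p = 0.81), nor with the block (adjusted p = 0.384). Its number 2 libraries rest on 16 reads in KO and 11 in WT. Cxcl3, another gene of this Cxcr2 ligand family, was 0.665, 1.04, 1.40 and 1.26 in KO libraries 1 to 4 and 2.50, 1.59, 2.84 and 1.85 in WT libraries 1 to 4. It fell by 0.61 on the log2 scale (limma adjusted p = 0.0213). Leaving out KO replicate 1 (adjusted p = 0.0566), WT replicate 1 (0.0606) or WT replicate 3 (0.0527) ended that call.

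The balance between Ccl3 and Cxcl2 inside each library differed between the genotypes. Per kb of exon, the level of Ccl3 was 5.83, 28.1, 7.74 and 8.42 times that of Cxcl2 in KO libraries 1 to 4. In WT libraries 1 to 4 it was 0.724, 2.17, 0.873 and 1.12 times that of Cxcl2 per kb. The ratios of the genotypes did not overlap. The pair was chosen after its values were seen, and no test was made of the ratio.

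The number 2 libraries stood apart in the induced class in both genotypes. Library 2 was the lowest of its genotype in KO and in WT for 5 of 5 induced chemokines, for 1 of 3 constitutive ones and not for Ccl17, against 4.5% of all tested genes. The same held for 13 of 24 regulators of chemokine genes and mRNAs and for 4 of 8 measured inflammatory cytokines and related products. The early response factor Egr1 was 124, 10.7, 46.1 and 63.8 in KO libraries 1 to 4 and 94.3, 13.8, 98.1 and 83.1 in WT libraries 1 to 4. The cytokine Il1b was 69.4, 7.42, 17.3 and 31.8 in KO libraries 1 to 4 and 95.1, 14.7, 64.2 and 42.5 in WT libraries 1 to 4. What the replicate number marks is not given in the labels, and the part of these factors in the chemokine values was not tested.

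**Figure D2:**
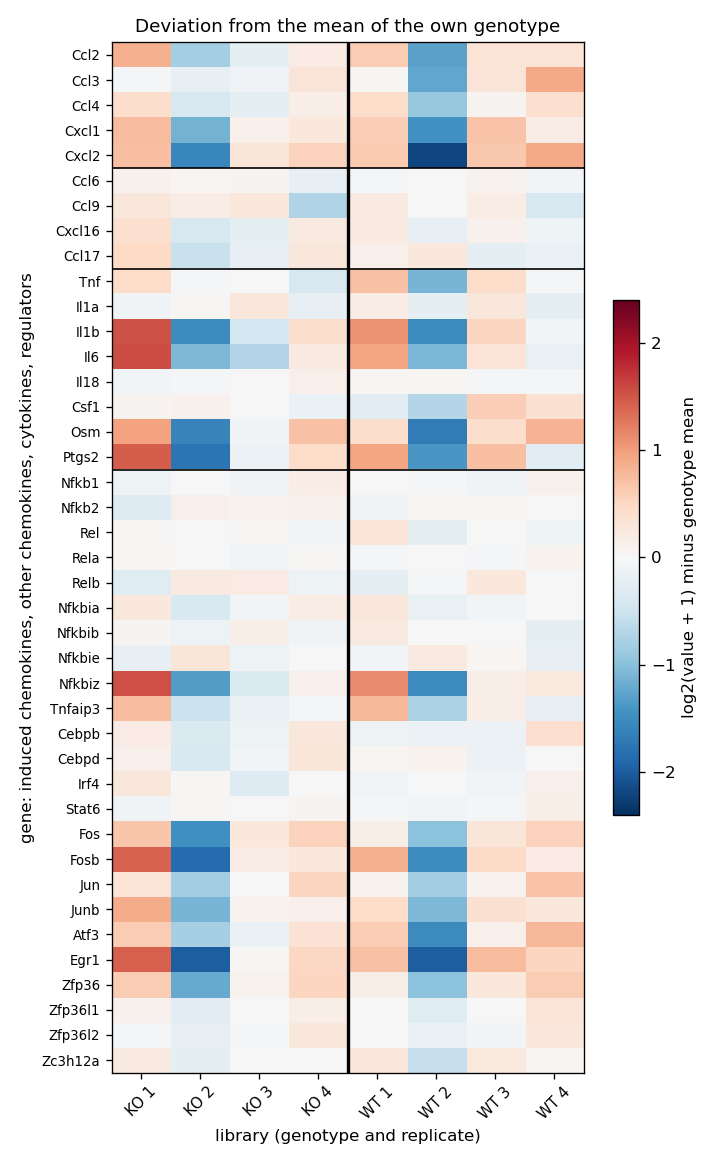
Deviation of log2(value + 1) from the mean of the own genotype (colour, blue below and red above) for chemokines, cytokines and regulators (rows) in the 4 KO and 4 WT libraries (columns). The replicate 2 columns are blue in both genotypes for the 5 induced chemokines and for early response genes such as Egr1 and Fosb, and pale for Ccl6, Nfkb2, Rela and Stat6.

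Per length of annotated exons (GENCODE M21, GRCm38), Ccl6 had the highest level in both genotypes, at 7124 ± 653 per kb in KO and 2341 ± 101 per kb in WT (SD, n = 4). In KO the order of mean levels then ran through Ccl3 at 133 ± 21.9, Ccl9 at 73.9 ± 20.6, Ccl17 at 20.6 ± 6.87, Cxcl2 at 15.4 ± 7.94, Ccl4 at 7.88 ± 2.37, Ccl2 at 5.03 ± 2.84, Cxcl16 at 4.22 ± 1.13 and Cxcl1 at 1.50 ± 0.937 per kb. In KO the libraries of Ccl6, Ccl3 and Ccl9 did not overlap with their neighbours in this order, and neither did those of Cxcl16 and Cxcl1, while neighbours from Ccl17 to Cxcl16 overlapped. In WT the order after Ccl6 was Cxcl2 at 34.7 ± 20.0, Ccl3 at 33.6 ± 18.4 and Ccl9 at 25.1 ± 4.45 per kb, which overlapped with each other. Ccl17 followed at 7.40 ± 1.43, apart from its neighbours, and Ccl4, Ccl2, Cxcl16 and Cxcl1 lay between 1.87 and 2.76 per kb with overlap. By mean level per kb, Cxcl2 thus came after Ccl6, Ccl3, Ccl9 and Ccl17 in KO and directly after Ccl6 in WT.

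Ccl9, Ccl6, Ccl3 and Ccl4 share a cluster on chromosome 11 (GRCm38), at 83572919 to 83578636, 83587882 to 83593087, 83647844 to 83649355 and 83662584 to 83664683. All 4 rose. Beside them, Ccl5, another CC chemokine of the same cluster, was not called (log2 fold change 0.30, limma adjusted p = 0.262). Wfdc17, which encodes a small secreted whey acidic protein-type protein, was 112, 122, 97.9 and 75.3 in KO libraries 1 to 4 and 12.5, 17.7, 16.2 and 10.9 in WT libraries 1 to 4. It rose by more than any of the 4 chemokines, at 2.75 on the log2 scale (SE 0.175, limma adjusted p = 4.44e-06). Toward the edges the fold changes were smaller, at 0.31 for Taf15, 0.50 for Wfdc21 and 0.098 for Heatr6, the last not called (limma adjusted p = 0.54). Ccl2 and Cxcl16 lie elsewhere on this chromosome, and Cxcl1 and Cxcl2 lie 10.8 kb apart on chromosome 5.

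**Figure D3:**
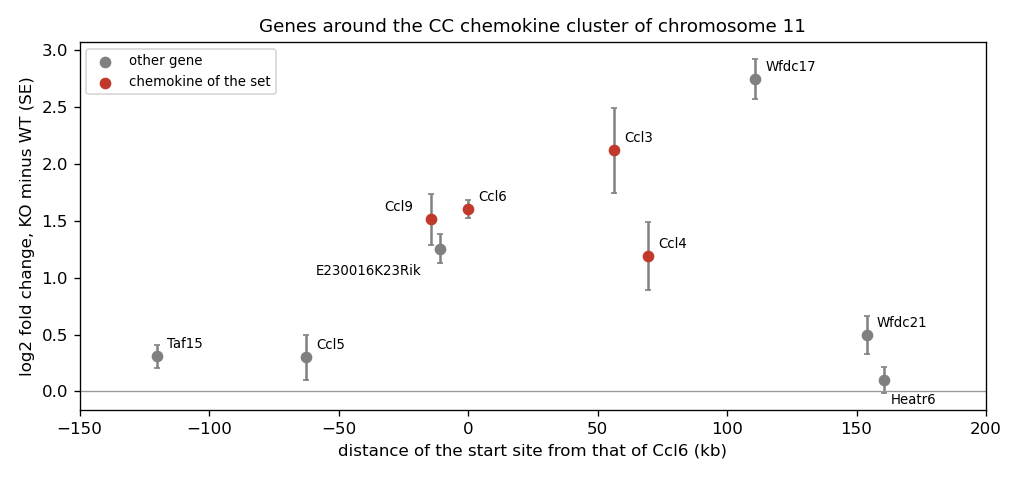
Log2 fold change KO minus WT with its SE (vertical axis) of genes around the chromosome 11 cluster by distance of the start site from that of Ccl6 in kb (horizontal axis). Chemokines of the set are red and other genes grey. Ccl9, E230016K23Rik, Ccl6, Ccl3, Ccl4 and Wfdc17 lie at or above 1.19, while Taf15, Ccl5, Wfdc21 and Heatr6 lie at or below 0.50.

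Among 30 other chemokine ligand genes, 10 had a row. Of these, 1 rose, 2 fell and 7 were not called, beside 18.7% of all tested genes higher and 20% lower. The median log2 difference was -0.089. The 20 without a row, among them Ccl7, Ccl8, Ccl24 and Cxcl5, were not analysed here. Ccl22 and Cxcl3 are given above. Cxcl14 was 1.77, 1.41, 2.36 and 1.36 in KO libraries 1 to 4 and 4.16, 4.77, 6.53 and 2.12 in WT libraries 1 to 4. It fell by 0.93 on the log2 scale (limma adjusted p = 0.015), with an overlap between KO library 3 and WT library 4. That call was lost without both number 2 libraries (adjusted p = 0.0967).

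Receptors are the other side of the system, and those on macrophages tune their own response to these ligands. Of 24 receptor genes 10 had a row. Of these, 5 rose, 1 fell and 4 were not called, beside 18.7% of all tested genes higher and 20% lower. The median log2 difference was 0.67. Ccr1, the receptor of Ccl3, Ccl6 and Ccl9, was the one that fell, while these 3 ligands rose. It was 71.5, 63.5, 67.4 and 72.2 in KO libraries 1 to 4 and 161, 128, 144 and 168 in WT libraries 1 to 4, which gave -1.11 as log2 fold change (SE 0.0866, limma adjusted p = 1.41e-05). Ccr2, the receptor of Ccl2 and a monocyte marker, averaged 55.4 ± 20.2 in KO and 26.8 ± 4.92 in WT (log2 fold change 0.96, limma adjusted p = 0.01). Cx3cr1, a receptor of monocytes and interstitial macrophages, averaged 8.19 ± 3.10 in KO and 3.35 ± 0.91 in WT (log2 fold change 1.05, limma adjusted p = 0.005).

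Cxcr2, the receptor of Cxcl1 and Cxcl2, was 65.1, 62.6, 74.2 and 98.6 in KO libraries 1 to 4 and 15.5, 12.4, 16.4 and 9.05 in WT libraries 1 to 4, which gave 2.42 as log2 fold change (SE 0.19, limma adjusted p = 1.48e-05). Cxcr1, a related receptor known from neutrophils, was 196, 239, 208 and 187 in KO libraries 1 to 4 and 19.0, 15.7, 20.9 and 10.7 in WT libraries 1 to 4. Its log2 fold change was 3.60 (SE 0.173, limma adjusted p = 1.19e-06). For both receptors the groups lay far apart. Of 10 neutrophil markers, which include Cxcr2, 4 had a row, Retnlg among them at or below 1.25 in KO and 2.88 in WT. Their summed value was 74.7 to 114 in KO and 22.9 to 58.1 in WT, and most of the KO sum is Cxcr2 itself. Among the other markers, S100a8 averaged 11.6 ± 1.34 in KO and 11.8 ± 3.62 in WT (limma adjusted p = 0.962). S100a9 fell by 1.34 on the log2 scale (limma adjusted p = 0.0271). Ly6g, Camp, Ngp, Ltf, Mpo and Elane were not analysed here, nor were the receptor genes Ccr4, Cxcr6, Cxcr3 and Ackr2. Cxcr4 was not called (limma adjusted p = 0.321) but was lower in 4 of 4 pairs, with an adjusted p of 0.00122 under the block.

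**Figure D4:**
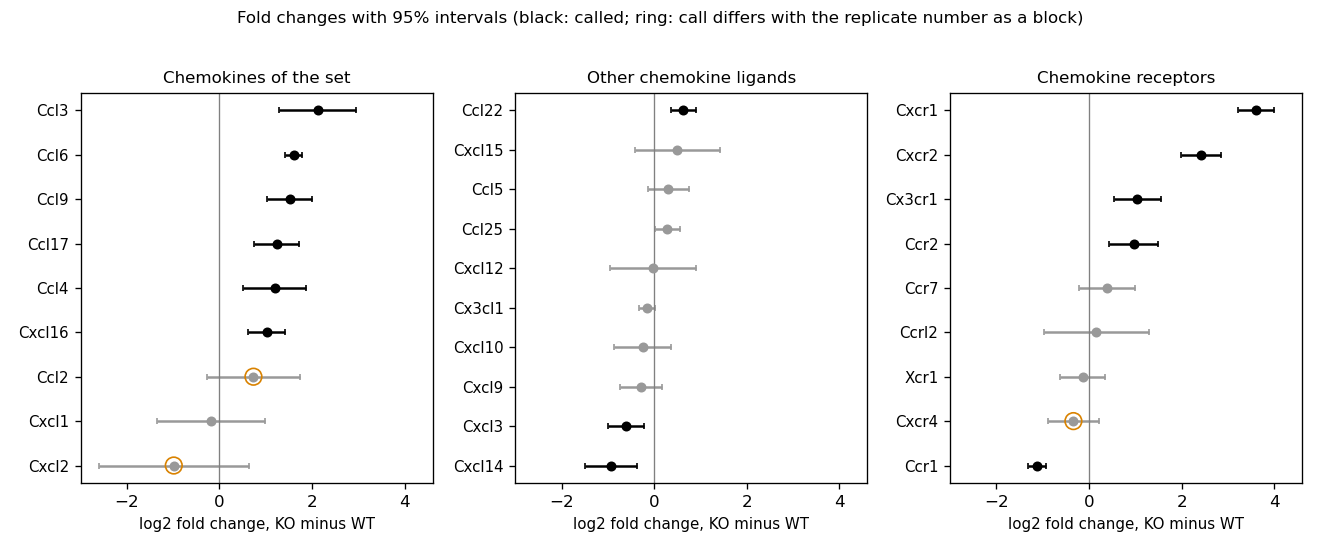
Log2 fold change KO minus WT with its 95% interval (horizontal axes) of 9 chemokines of the set, 10 other chemokine ligands and 9 chemokine receptors (rows). Black marks genes called at an adjusted p under 0.05, grey those not called, and orange rings those whose call differs with the replicate number as a block, which are Ccl2, Cxcl2 and Cxcr4.

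Among 24 regulators, 3 rose, 4 fell and 17 were not called, beside 18.7% of all tested genes higher and 20% lower. The median log2 difference was -0.13. Under the replicate block 5 were higher and 11 lower, beside 22.4% and 24.3% of all tested genes. Nfkb1, which encodes the NF-kB p50 precursor, averaged 125 ± 12.1 in KO and 166 ± 9.51 in WT (log2 fold change -0.40, limma adjusted p = 0.00196). Relb, another NF-kB subunit, averaged 18.5 ± 3.30 in KO and 13.2 ± 1.91 in WT (log2 fold change 0.45, limma adjusted p = 0.0284). Rela, the activating partner of p50, was not called (log2 fold change 0.0049, limma adjusted p = 0.952). Cebpd, a C/EBP factor of inflammatory genes, averaged 14.6 ± 2.94 in KO and 25.7 ± 1.87 in WT (log2 fold change -0.79, limma adjusted p = 0.0011). Irf4, a factor of type 2 programmes that include Ccl17, averaged 6.83 ± 1.29 in KO and 4.30 ± 0.345 in WT (log2 fold change 0.55, limma adjusted p = 0.00788). The Irf4 call was lost without both number 2 libraries (adjusted p = 0.0522).

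RNA-binding proteins that break down cytokine mRNAs moved both ways. Zfp36l1 averaged 99.5 ± 13.2 in KO and 59.5 ± 10.1 in WT (log2 fold change 0.74, limma adjusted p = 0.00164). Zfp36l2 fell by 0.53 on the log2 scale (limma adjusted p = 0.00495). Zc3h12a, which encodes the nuclease Regnase-1, averaged 25.9 ± 3.29 in KO and 39.5 ± 9.45 in WT (limma adjusted p = 0.0267), and the call ended when KO replicate 2 (0.0729) or 3 (0.0588), or WT replicate 1 (0.0741), 3 (0.067) or 4 (0.0512), was left out. Zfp36 was not called without the block and was lower with it (log2 fold change -0.51, adjusted p = 0.00428). Fosb, an AP-1 subunit, was lower in KO in 4 of 4 pairs, with a log2 fold change of -1.29 that was not called (limma adjusted p = 0.167) and was called under the block (adjusted p = 9.86e-05).

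Of 8 enzymes known to shed or trim chemokines, 7 had a row. Of these, 3 rose and 1 fell, beside 18.7% of all tested genes higher and 20% lower. Mmp12, macrophage elastase, which cleaves several CXC and CC chemokines, was 76.3, 43.7, 61.8 and 47.5 in KO libraries 1 to 4 and 11.5, 7.36, 11.6 and 8.41 in WT libraries 1 to 4. Its log2 fold change was 2.43 (SE 0.192, limma adjusted p = 1.51e-05). Mmp14, a membrane-bound metalloprotease, averaged 5.42 ± 1.10 in KO and 1.57 ± 0.729 in WT (log2 fold change 1.34, limma adjusted p = 0.000706). Adam10, which sheds Cxcl16 from the membrane, averaged 279 ± 5.68 in KO and 293 ± 22.6 in WT and was not called (limma adjusted p = 0.426). Adam17, another shedding protease, had a log2 fold change of 0.22 (limma adjusted p = 0.0486) that ended as a call when any library except KO replicate 1 was left out, at an adjusted p of 0.0635 to 0.118. Mmp9 fell by 0.97 on the log2 scale (adjusted p = 0.0395) and ended as a call when KO replicate 1, 2 or 4, or WT replicate 1 or 3, was left out, at an adjusted p of 0.0663 to 0.104. WT library 3 was the highest of all libraries for Mmp9, at 6.46, and for Cxcl14 and Cxcl3. It also had the highest summed markers of endothelium (80.8), fibroblasts (50.6) and epithelium (124), lists in which 0 genes were called. The part of such cells in these values was not tested.

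Of 13 inflammatory products induced in parallel with chemokines, 8 had a row. Of these, 2 rose, 1 fell and 5 were not called, beside 18.7% of all tested genes higher and 20% lower. Under the block 3 were lower, with Il1b and Osm added, beside 24.3% of all tested genes. Csf1, the macrophage growth factor, averaged 15.1 ± 1.21 in KO and 2.53 ± 1.35 in WT (log2 fold change 2.27, limma adjusted p = 9.45e-05). Il1a averaged 88.1 ± 12.9 in KO and 49.1 ± 9.22 in WT (log2 fold change 0.84, limma adjusted p = 0.00116). Il18 averaged 209 ± 13.1 in KO and 299 ± 9.60 in WT (log2 fold change -0.51, limma adjusted p = 8.22e-05). Tnf averaged 23.4 ± 5.81 in KO and 26.8 ± 12.7 in WT and was not called (limma adjusted p = 0.90).

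Markers of interstitial macrophages, another lung macrophage type, were also higher in part. Of 11, Folr2 and Tmem119 were not analysed here and 9 had a row. Of these 9, 6 rose and 0 fell, beside 18.7% of all tested genes higher and 20% lower. Their summed value, most of it from Mrc1, which alveolar macrophages also express, was 3061 to 3606 in KO and 2806 to 3536 in WT. C1qb was 47.0, 11.8, 20.3 and 25.6 in KO libraries 1 to 4 and 10.8, 4.33, 8.59 and 4.55 in WT libraries 1 to 4 (log2 fold change 1.68, limma adjusted p = 0.00757). KO library 1, the highest for C1qb, was also the highest KO library for 7 of the 9 chemokines, all but Ccl3 and Ccl9. The share of all tested genes with this library highest was not determined, so that count cannot be called unusual. Without KO replicate 1 the same number of chemokines, 6, was called higher, beside 16.1% of all genes tested in that fit. Of 8 monocyte markers 7 had a row, with 2 higher and 1 lower, beside 18.7% of all tested genes higher and 20% lower. Their summed value was 65.5 to 236 in KO and 83.1 to 283 in WT. Much of that sum is Nr4a1, also an early response gene, which averaged 58.9 ± 46.9 in KO and 117 ± 80.1 in WT and was not called (limma adjusted p = 0.321), while Ccr2 and F13a1 rose. Of 8 dendritic cell markers 8 had a row, with 1 higher, 0 lower and 7 not called, beside the same shares of all tested genes. Their summed value was 23.7 to 35.5 in KO and 22.9 to 28.7 in WT. The 1 that rose was Clec9a (log2 fold change 0.69, limma adjusted p = 0.0117). The part of these cell types in the chemokine values was not tested.

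Likeness was measured as the root mean square difference between log2(value + 1) profiles over the 8 libraries, each centred on its own mean, among genes of above-median expression. Closest to Ccl6 were the glutathione transferase Gstm1 at 0.0836, the protease Ctsk at 0.102 and the adhesion molecule Alcam at 0.108. Closest to Ccl3 was the secreted stress factor Gdf15 at 0.286, followed by the histone gene H1f2 at 0.517 and Atf5 at 0.558. Gdf15 averaged 90.4 ± 17.1 in KO and 21.5 ± 8.93 in WT. Closest to Ccl17 were the ribosomal protein genes Rplp1 at 0.224, Rps12 at 0.224 and Rps21 at 0.246. These distances describe the 8 libraries, which come from both genotypes.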

How the data were processed

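Polyadenylated RNA of 4 KO and 4 WT pools was sequenced, with groups and replicate numbers from the sample titles. The submitters' processing notes name GRCm38, limma, RSEM 1.3.1, cutadapt 1.7.1 and CASAVA 1.8.2. The aligner, annotation release and strand setting are not stated there. The deposited values are a normalised signal scaled by a factor for each library, which is not exactly its reads in listed genes. Ccl6 in library 1 was 13630 at 1.31% of those reads in KO, and 4136 at 0.423% in WT. KO values thus stand somewhat higher against WT than shares of reads do. Each value equals a whole read number plus 0.5, scaled, for 100% of values at a tolerance of 0.01. Reads derived from this spacing served for depth and shares only, and 3 reads are worth a value of 0.1 to 0.152, which covers counting error only. Genes that reached 1 in 4 or more libraries were fitted on log2(value + 1) by limma 3.58.1 under R 4.3.3 (trended variances, two-sided, adjusted p under 0.05). This fit was tested on simulated data. The simulation had no replicate effect and less spread than Cxcl1 or Cxcl2 show, so it does not cover such genes.

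All 9 members with a row passed the filter. Libraries 1 to 4 of KO deviated from their genotype's mean together with the WT library of the same number (correlations 0.36, 0.29, 0.39 and 0.43), so the replicate block was also fitted. Members, lists and tests were chosen with earlier results of these data known. The text names the members, up to 6 called genes per list by adjusted p, and measured receptors of members, of which 1 is counted but not reported here. Genes outside this rule, namely Ccl5, Cx3cl1, Retnlg, Gdf15's level, Cxcr4, Egr1, Il1b, Osm, Tnf, Fosb, Rela, Relb, Zfp36, Nr4a1, F13a1, Chil3, Fabp1, Ear1, Epcam, Adam10, S100a8, S100a9, C1qb, the E230016K23Rik overlap and the neighbours in the chromosome 11 cluster, were chosen after their values were seen. Alternatives were other filters, pseudocounts, normalisations, variance models, weights and thresholds, and leaving out libraries.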

Additional observations from a re-analysis of the deposited data

Results flagged for a closer look

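Ccl9 in KO replicate 4 was 132, against 247 to 261 in the other 3 KO libraries, a gap larger than the critical share of the group's range in Dixon's test for 4 values. WT replicate 4 was also the lowest WT library for Ccl9, at 57.7. This was 1 of 64 groups of 4 libraries checked over 32 named genes, and chance alone gives about 1 in 20.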

How the results depend on the processing

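The count of 6 higher chemokines was 4 to 7 over all alternatives, 4 where a minimum value of 8 left fewer to test. The count of lower chemokines, 0, was 1 under the replicate block and without both number 2 libraries, and 0 to 1 when single libraries were left out; the gene is Cxcl2. Cxcl1, never called, changed sign with library quality weights (0.18) and when single libraries were left out, where it was -0.67 to 0.19 (0.19 without KO replicate 2, 0.013 and 0.042 when WT replicate 1 and then 3 was omitted). Under the block, 2 receptors, 11 regulators and 3 cytokines were lower and 5 regulators higher; no other call of a named chemokine than those of Ccl2 and Cxcl2 changed. Without both number 2 libraries, an alternative added after the data were seen, 1 regulator was higher, 1 other ligand lower and 0 enzymes lower. A minimum of 8 gave 3 receptors higher, 0 other ligands lower and 0 enzymes lower. A pseudocount of 5 gave 0 enzymes lower, and leaving out both number 4 libraries gave 2. Without the variance trend 2 other ligands were higher. At an adjusted p under 0.01, 0 other ligands and 0 enzymes were lower. Requiring 1 log2 unit left 0 other ligands in either direction, 3 receptors higher, 0 regulators in either direction, 0 enzymes lower, and 1 cytokine higher and 0 lower. Leaving out single libraries gave 1 to 2 other ligands higher, 1 to 3 lower, and 0 to 2 enzymes lower. The cause was not tested. EdgeR and DESeq2 were not run, because the deposited values are not counts. Depth limits Cxcl1, Ccl2 and Ccl4, which rest on 11 to 219 reads per library. Replicates are separate pools of mice, and 4 pools a group limit every interval.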
